A study of Mus musculus with 7 samples.

Results

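The genes of the TEAD transcription factors and of the proteins that act directly on them were followed in the cytosine modification maps of ATDC5 cells, a mouse chondroprogenitor line that is driven to differentiate by an insulin-transferrin-selenite supplement. The 10 genes were Tead1, Tead2, Tead3, Tead4, Yap1, Wwtr1 (which encodes TAZ), Vgll3, Vgll4, Lats1 and Lats2. They were chosen by name, and a peak was assigned to a gene if it carried that gene's symbol in the deposited list, or if it lay in the gene body or within 50 kb of it on GRCm38. By this rule 9 of the 8949 peaks in the 4 deposited lists belonged to these genes, and 4 of the 10 genes had at least 1 of them.

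The samples were genomic DNA of ATDC5 cells before induction (day 0) and after 5 or 10 days with the supplement, all kept in the same basal medium with serum and ascorbic acid. The 4 lists were of DNA enriched for 5-methylcytosine (5mC) at day 0 and day 10, from 1 sample each, and of DNA enriched for 5-hydroxymethylcytosine (5hmC) at day 5 and day 10, each merged from 2 samples. The labels do not say whether merged samples came from separate cultures. Sampling days follow the labels here, although the study's text names a later day that no label gives and does not name the earlier labelled 5hmC day among those profiled. Because a list holds positions without a score, replicate spread and sequencing depth are unknown, no difference between days was tested, and the identity of the cells could not be checked by marker expression. The day 0 5mC list held 326 peaks and the day 10 5mC list 2401, both at a minimum enrichment of 3-fold, while the day 5 5hmC list held 2058 and the day 10 5hmC list 4164, at a minimum of 10-fold.

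5mC is the methylated form of cytosine, found in mammals mainly at CpG dinucleotides, and TET enzymes oxidise it to 5hmC, which is often found in the bodies and enhancers of active genes. YAP and TAZ are coactivators that carry the output of the Hippo pathway. The LATS kinases phosphorylate them and so keep them in the cytoplasm, and when this brake is released they enter the nucleus and bind DNA through TEAD proteins. VGLL proteins bind the same surface of TEAD, VGLL4 as a competitor of YAP. In skeletal progenitors this pathway reads cell shape and matrix stiffness.

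Peaks of 5hmC lay at Yap1, Vgll4 and Tead2, and peaks of 5mC at Tead2 and Tead3. Of the 9 peaks, 7 were of 5hmC and 2 of 5mC. The lists held 2058 and 4164 peaks for 5hmC, and 326 and 2401 for 5mC. Their minimum enrichment was 10-fold for 5hmC and 3-fold for 5mC, so the split does not compare the marks. Of the 9, only 3 lay inside any of the 10 genes, 2 in Yap1 and 1 in Vgll4, and the same 3 carried the symbol of 1 of the 10 genes. The other 6 lay beside the 10 genes, at 12.6 to 38.1 kb, and some of these were inside a neighbouring gene. No peak of any list was assigned to Tead1, Tead4, Wwtr1, Vgll3, Lats1 or Lats2.

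**Figure D1:**
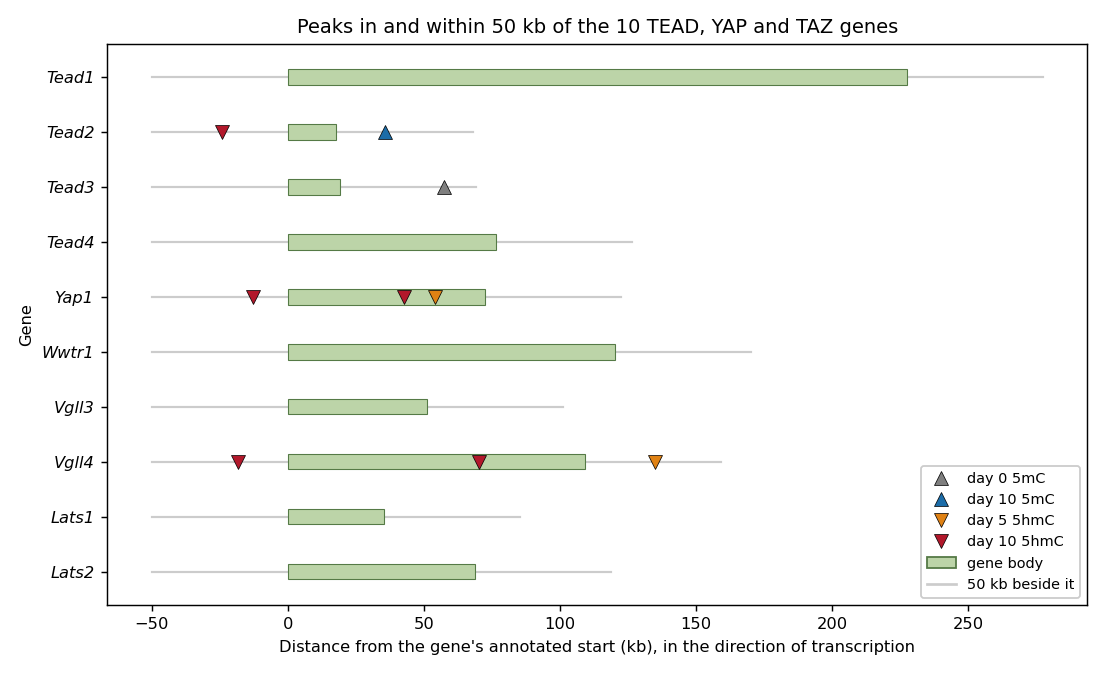
Peaks assigned to the 10 genes, each gene drawn from its annotated start in the direction of transcription (kb), with its gene body as a bar and the 50 kb on each side as a line. Triangles mark peak midpoints by list. Yap1 and Vgll4 carry 3 peaks each, Tead2 2, Tead3 1, and the other genes none.

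These counts were read against the 21951 protein-coding genes of the annotation under the same rule. A day 10 5hmC peak was found at 3 of the 10 genes and at 20.6% of protein-coding genes. A day 5 5hmC peak was found at 2 of the 10 and at 14% of protein-coding genes. For 5mC there was 1 gene of 10 at day 10, against 15.9%, and 1 of 10 at day 0, against 1.84%. With gene bodies only, 2 of the 10 had a day 10 5hmC peak against 7.02% of protein-coding genes, and 1 had a day 5 5hmC peak against 4.58%. No gene body of the 10 held a 5mC peak, while 6.04% of protein-coding genes did at day 10 and 0.501% at day 0. The 6 genes of 10 without any peak compare with 62.9% of protein-coding genes. These shares do not allow for length, and the 10 genes had a median length of 70.7 kb against 17.4 kb for protein-coding genes.

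Length was taken into account by counting peaks per Mb of gene window. The windows of the 10 genes covered 1.8 Mb, and those of all protein-coding genes 1668 Mb. Day 10 5hmC peaks had a density of 2.78 per Mb at the 10 genes (5 peaks) and of 1.99 at protein-coding genes, a ratio of 1.4 (95% exact binomial interval 0.454 to 3.26). Day 5 5hmC peaks had a density of 1.11 per Mb (2 peaks) against 1.02, a ratio of 1.09 (0.132 to 3.92). For 5mC the ratio was 0.453 at day 10 (1 peak, interval 0.0115 to 2.52) and 4.93 at day 0 (1 peak, 0.125 to 27.2). Each interval holds 1, so no difference in density was detectable with these few peaks. The intervals cover counting error only, and their width leaves room for densities well above or below that of protein-coding genes.

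**Figure D2:**
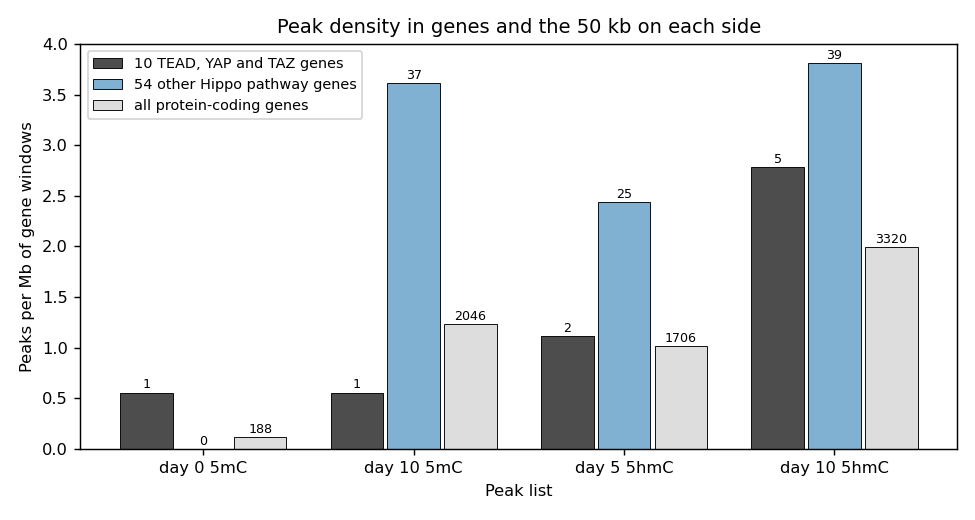
Peaks per Mb in genes and the 50 kb on each side of them, for each list, at the 10 TEAD, YAP and TAZ genes, 54 other Hippo pathway genes and all protein-coding genes, with the number of peaks above each bar. At the 10 genes the bars rest on 1, 1, 2 and 5 peaks.

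Yap1 encodes YAP, and was the only one of the 10 genes with a peak inside the gene on both days of 5hmC. Of protein-coding genes, 4.58% held a day 5 and 7.02% a day 10 5hmC peak inside the gene, and the share with both is not given here. The gene lies on chromosome 9 from 7931999 to 8004596 on the minus strand. Its day 5 5hmC peak ran from 7949947 to 7950935 (989 bp), 54.2 kb downstream of the gene's start. Its intragenic day 10 5hmC peak ran from 7961845 to 7961984 (140 bp), 42.7 kb downstream of the start and inside intron 4 of the principal transcript, which has 7 introns. Both carried the symbol Yap1. They did not overlap, and 10.9 kb of sequence separated them.

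The day 5 peak covered a cassette exon of Yap1. In the principal transcript this part of the gene is intron 5, but 3 of the 6 annotated transcripts that span it, 2 of the 3 protein-coding ones among them, hold a coding exon of 48 bases from 7950492 to 7950539. Its midpoint lay 74 bp from that of the peak. The exon is 16 codons long, so its inclusion does not shift the reading frame. The central 300 bases of the peak are shown because they hold this exon, on the strand of the gene (chr9:7950292-7950591, GRCm38, minus strand), with the exon in capitals at bases 53 to 100, preceded by ag and followed by gt, the usual borders of an intron.
Yap1 day 5 5hmC peak, centre: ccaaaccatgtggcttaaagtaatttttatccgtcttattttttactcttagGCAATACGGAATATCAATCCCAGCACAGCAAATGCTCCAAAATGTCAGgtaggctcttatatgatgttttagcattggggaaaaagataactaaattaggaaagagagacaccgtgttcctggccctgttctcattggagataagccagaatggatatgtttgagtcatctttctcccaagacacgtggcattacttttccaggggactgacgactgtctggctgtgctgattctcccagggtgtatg

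The whole peak held 11 CpG, or 1.11 per 100 bp, against 1.01 in its flanks of equal width. This placed it at percentile 18.1 of the day 5 list for CpG content, while its width stood at percentile 77.4. Only 2.22% of its bases were marked as repeat.

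The day 10 peaks of Yap1 differed from each other in sequence. The intronic one held 3 CpG in 140 bp (2.14 per 100 bp, percentile 60.6 of its list), its flanks held none and no base was marked as repeat. The other day 10 5hmC peak assigned to Yap1 lay 12.6 kb upstream of the gene, from 8017157 to 8017229, in no annotated gene and with no symbol. It was 73 bp wide (percentile 1.86 of the list), held no CpG and was wholly marked as repeat, with a run of 31 identical bases. Of the day 10 list as a whole, 6.56% of peaks held no CpG and 1.97% were wholly repeat, and the part of repeat sequence in this call was not tested. Without peaks of that kind, an alternative added after the data were seen, the 10 genes kept 4 day 10 5hmC peaks, and 3 of the genes still had such a peak. Both sequences are given on the plus strand with each CpG in capitals, as the pair shows the contrast (chr9:7961845-7961984 and chr9:8017157-8017229, GRCm38).
Yap1 day 10 5hmC peak, intronic: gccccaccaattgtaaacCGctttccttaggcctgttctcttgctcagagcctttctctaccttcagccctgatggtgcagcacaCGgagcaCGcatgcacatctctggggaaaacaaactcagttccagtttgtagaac
Yap1 day 10 5hmC peak, upstream: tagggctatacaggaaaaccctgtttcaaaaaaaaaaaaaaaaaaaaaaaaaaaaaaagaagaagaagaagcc

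Wwtr1, which encodes TAZ, the paralogue of YAP, had no peak in its gene body (chromosome 3, 57455649 to 57575910, minus strand) or within 50 kb of it. The nearest peaks lay 596 kb away for day 5 5hmC, 880 kb for day 10 5hmC, 1.54 Mb for day 10 5mC and 11.3 Mb for day 0 5mC. Ordered by this distance among protein-coding genes, Wwtr1 stood at percentiles 61.7, 78.7, 80.8 and 86.4, so that in each list more genes were closer to a peak than farther from one. The paralogues thus had different peak counts over all lists, 3 against 0, in windows of 172.6 kb for Yap1 and 220.3 kb for Wwtr1. Of the 3, 1 was the wholly repeat peak upstream of Yap1, and 62.9% of protein-coding genes had no peak of any list.

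Vgll4, whose product competes with YAP for TEAD, matched Yap1 in its number of 5hmC peaks. The gene spans chromosome 6 from 114860628 to 114969994 on the minus strand. A day 10 5hmC peak with the symbol Vgll4 ran from 114899692 to 114899892 (201 bp), in intron 1 of the principal transcript and 22 kb downstream of that transcript's start. It was 70.2 kb from the start of the longest form of the gene. A further day 10 5hmC peak lay 18 kb upstream of the gene, from 114988017 to 114988165 (149 bp), outside any annotated gene. The day 5 5hmC peak lay 25.3 kb downstream, from 114834111 to 114835342 (1232 bp), in an intron of the neighbouring gene Atg7. It carried the symbol of Atg7, an autophagy gene. These peaks were far apart, with 64.3 kb between the day 5 peak and the nearer day 10 peak.

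The Vgll4 peaks ranged widely in CpG content. The intronic day 10 peak had 3 CpG (1.49 per 100 bp, percentile 38 of its list), and 49.8% of its bases were marked as repeat. The upstream day 10 peak had no CpG and no repeat. The day 5 peak downstream had 20 CpG (1.62 per 100 bp against 0.609 in its flanks, percentile 51) and was wider than most of its list (percentile 91.7). The sequences of the day 10 peaks are given whole, on the plus strand with CpG in capitals (chr6:114899692-114899892 and chr6:114988017-114988165, GRCm38), since they are the ones closest to this gene.
Vgll4 day 10 5hmC peak, intronic: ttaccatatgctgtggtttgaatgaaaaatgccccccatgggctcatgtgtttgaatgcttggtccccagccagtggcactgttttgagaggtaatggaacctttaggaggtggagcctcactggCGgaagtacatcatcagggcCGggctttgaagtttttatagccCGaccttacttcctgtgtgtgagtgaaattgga
Vgll4 day 10 5hmC peak, upstream: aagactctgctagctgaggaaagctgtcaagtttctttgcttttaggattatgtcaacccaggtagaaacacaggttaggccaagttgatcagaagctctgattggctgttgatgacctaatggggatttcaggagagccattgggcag

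Vgll3, another TEAD cofactor, had no peak (chromosome 16, 65815257 to 65866368). Its nearest day 5 and day 10 5hmC peaks were both 1246 kb away, at percentiles 77.2 and 84.7 of protein-coding genes, and its nearest day 10 5mC peak was 257 kb away.

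Among the TEAD factors, which bind DNA for the coactivators, Tead2 was the only gene with peaks of both marks. Tead2 is the shortest of the 10 genes and lies on chromosome 7 (45215753 to 45233644, plus strand). The day 10 5hmC peak lay 23.9 kb upstream, from 45191705 to 45191839 (135 bp), in an intron of Ccdc155. The day 10 5mC peak lay 17.5 kb downstream, from 45251127 to 45251829 (703 bp), in an intron of Slc6a16. The peaks were on opposite sides of the gene with 59.3 kb between them, and neither carried the symbol Tead2. Day 10 peaks of both marks were found at 5.59% of protein-coding genes by the same rule.

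Within its own list, the 5hmC peak at Tead2 was rich in CpG and the 5mC peak poor. The 5hmC peak had 4 CpG (2.96 per 100 bp, percentile 82.3 of its list) and no repeat, and its flanks had 3.33 per 100 bp. The 5mC peak had 10 CpG (1.42 per 100 bp, percentile 12.7) against 1.14 per 100 bp in its flanks, with 62.7% of bases marked as repeat (percentile 96.3), and was narrower than most of its list (percentile 10.3). The 5hmC peak is given whole and the 5mC peak by its central 300 bases, which held 9 of its CpG, on the plus strand with CpG in capitals to show both marks beside 1 gene (chr7:45191705-45191839 and chr7:45251329-45251628, GRCm38).
Tead2 day 10 5hmC peak, upstream: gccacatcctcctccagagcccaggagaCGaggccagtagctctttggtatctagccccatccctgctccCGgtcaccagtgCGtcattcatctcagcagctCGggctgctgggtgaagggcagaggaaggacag
Tead2 day 10 5mC peak, downstream, centre: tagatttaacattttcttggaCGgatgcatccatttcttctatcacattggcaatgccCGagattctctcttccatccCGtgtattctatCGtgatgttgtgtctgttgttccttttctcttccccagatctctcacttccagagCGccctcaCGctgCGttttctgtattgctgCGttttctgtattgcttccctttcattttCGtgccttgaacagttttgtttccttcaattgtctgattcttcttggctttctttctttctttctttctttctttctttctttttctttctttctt

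Tead3 (chromosome 17, 28331671 to 28350817, minus strand) had the only day 0 peak, a 5mC peak 38.1 kb downstream, from 28293138 to 28293614 (477 bp). It carried the symbol Ppard, a nuclear receptor gene, and overlapped an exon of a noncoding Ppard transcript. It held 2 CpG (0.419 per 100 bp against 2.31 in its flanks), and 54.5% of its bases were repeat. Its width, at percentile 2.91, was among the lowest of the day 0 list. For 5hmC, the nearest peaks to Tead3 were at 77.8 kb at day 10 and 160 kb at day 5.

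Tead4 and Tead1 had no peak by the rule. Tead4 (chromosome 6, 128224288 to 128300823, minus strand) had its nearest day 5 5hmC peak at 81.1 kb and its nearest day 10 5hmC peak at 96.8 kb, closer than for most protein-coding genes (percentiles 19.5 and 30.5). Tead1 (chromosome 7, 112679318 to 112906807, plus strand) is the longest of the 10 genes, and its window of 327.5 kb was empty in all 4 lists. Its nearest peaks lay 150 kb away for day 10 5hmC (percentile 39.8), 1.84 Mb for day 5 5hmC (83.7), 2.02 Mb for day 10 5mC (85.6) and 61.4 Mb for day 0 5mC (97.3).

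Lats1 and Lats2, the kinases upstream of YAP and TAZ, had no peak within 50 kb. Lats1 (chromosome 10, 7681214 to 7716460, plus strand) was 145 kb from a day 10 5mC peak, 277 kb from a day 10 5hmC peak and 321 kb from a day 5 5hmC peak. Lats2 (chromosome 14, 57689662 to 57758388, minus strand) was 324 kb from a day 5 5hmC peak, 397 kb from a day 10 5hmC peak and 400 kb from a day 10 5mC peak. Both stood close to the middle of protein-coding genes for day 5 5hmC (percentiles 46.6 and 46.8). For day 10 5hmC they stood at percentiles 54.7 and 63.6, and for day 10 5mC at 29.2 and 50.5. The medians of protein-coding genes were 367 kb for day 5 5hmC, 230 kb for day 10 5hmC and 391 kb for day 10 5mC. Over all 10 genes the median distances were 322, 124 and 250 kb in the same order, and 2.80 Mb against 2.86 Mb for day 0 5mC. A gene without a called peak may still carry either mark below the enrichment that the lists required.

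**Figure D3:**
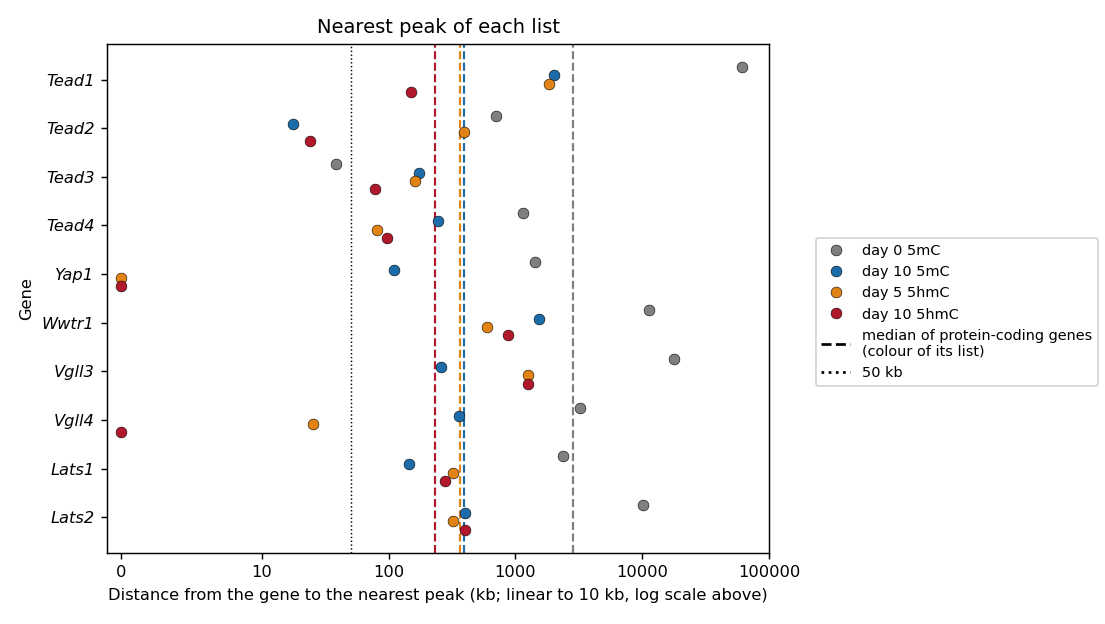
Distance from each gene to the nearest peak of each list in kb (linear up to 10 kb, log scale above), with the median of protein-coding genes for each list as a dashed line and the 50 kb limit as a dotted line. Yap1 has 5hmC peaks at distance 0 in both lists and Vgll4 in the day 10 list, whereas Wwtr1 and Vgll3 lie beyond the medians of both 5hmC lists.

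Of the peaks beside the genes, the outermost inside the 50 kb limit was that of Tead3 at 38.1 kb, and the first outside it were day 10 5hmC peaks at 65.5 kb from Vgll4 and 77.8 kb from Tead3, a day 10 5mC peak at 74.6 kb from Tead2, and the Tead4 peaks at 81.1 and 96.8 kb. With 100 kb on each side, 5 genes had a day 10 5hmC peak, with Tead3 and Tead4 added. For day 5 5hmC it was 3 genes, with Tead4 added. A wider window can only add peaks at any gene, and shares of protein-coding genes are given here for 50 kb and gene bodies only. The day 10 5hmC density ratio to protein-coding genes was 1.47 with 100 kb, against 1.4 with 50 kb.

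The 12 promoters that RefSeq gives for 8 of the 10 genes on GRCm38 (from 250 bases before to 50 after a start) overlapped no peak of any list, and Tead1 and Tead4 were not in that table. Such an overlap was rare in general, at 0.655% of all 32815 promoters of the table. The closest a peak came to an annotated transcript start of its own gene was 3.91 kb, for the intronic day 10 peak of Yap1, which lay near the start of a short noncoding transcript. The next was 12.6 kb, for the peak upstream of Yap1.

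At these genes no 5hmC peak was shared between the days, with only 2 peaks at day 5 and 5 at day 10 to compare. Both Yap1 and Vgll4 had a peak at each day, as had 7.57% of protein-coding genes, but none of their positions coincided, with an overlap for 0 of 2 peaks from day 5 and 0 of 5 from day 10. In the whole lists 29.6% of day 5 and 17.1% of day 10 peaks overlapped the other day. The counts stayed at 0 when peaks within 1000 bp of each other were taken as shared, against 30.5% of the day 5 and 17.7% of the day 10 list. Such small counts cannot show a difference from the shares of the lists, and none was tested. Peaks at these genes followed the widths of their lists, with 989 and 1232 bp at day 5, where the median was 819 bp, and 73 to 201 bp at day 10, where it was 147 bp.

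**Figure D4:**
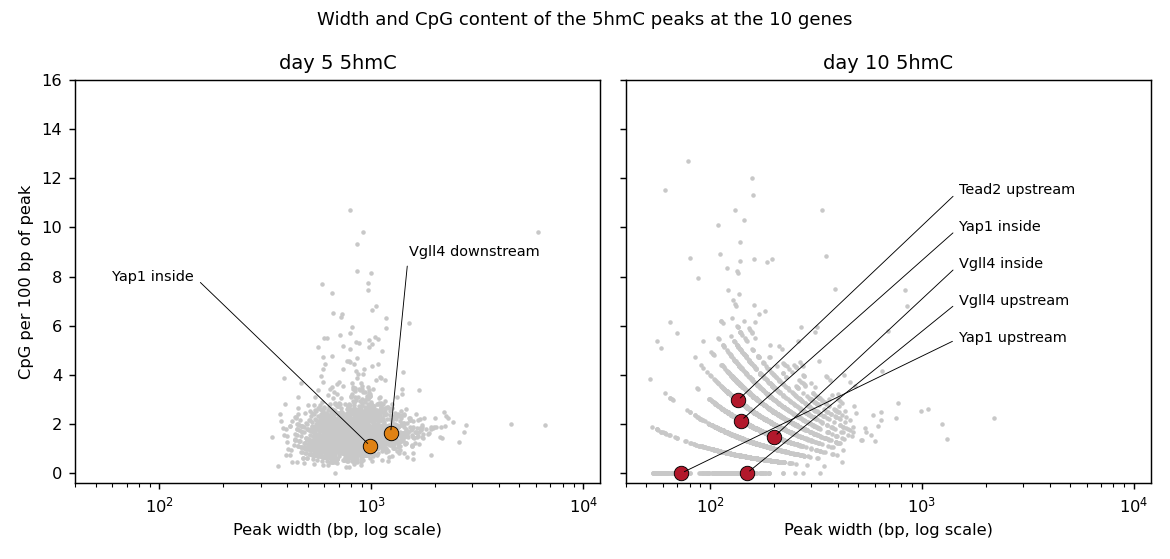
Width (bp, log scale) and CpG per 100 bp of every peak of the day 5 (left) and day 10 (right) 5hmC lists in grey, with the peaks at Yap1, Vgll4 and Tead2 coloured and named by their place relative to the gene. The 2 day 5 peaks are wider than 819 bp, the median of that list, and 2 of the 5 day 10 peaks lie at 0 CpG.

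Strings of known factors were searched on both strands in the peaks at these genes. The AP-1 string TGANTCA was in both day 5 5hmC peaks, at Yap1 and downstream of Vgll4, and in none of the 5 day 10 5hmC peaks. It was also in the day 0 5mC peak downstream of Tead3, outside the central 200 bp, and 9.82% of day 0 5mC peaks held it. In the 5hmC lists it was in 52.5% of day 5 and 10.9% of day 10 peaks. These whole peaks had a median width of 819 bp at day 5 and 147 bp at day 10. Within 200 bp around the midpoint, the string was in both day 5 peaks and in 0 of the 5 day 10 5hmC peaks. In that window 23.4% of the day 5 and 13% of the day 10 5hmC list held it. In the Vgll4 peak the string was centred 2 bp from the midpoint, and in the Yap1 peak it lay 66 bp from the midpoint and 113 bp from the cassette exon. It is shown in capitals with 15 bases on either side, on the plus strand (chr9:7950357-7950393 and chr6:114834710-114834746, GRCm38), since these are the only day 5 peaks of the 10 genes.
Yap1 day 5 AP-1 string: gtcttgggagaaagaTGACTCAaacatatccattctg
Vgll4 day 5 AP-1 string: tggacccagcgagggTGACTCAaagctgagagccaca

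The core of the TEAD site itself, GGAATG, was in 0 of the 9 peaks. It was in 43.3% of day 5 and 12.9% of day 10 5hmC peaks, and in 35% and 41.1% of day 0 and day 10 5mC peaks. These are shares of whole peaks, and the lists differ in peak width. In 200 bp around the midpoint, 15% of day 5 and 15.2% of day 10 5hmC peaks held it. The SOX string CCATTGT was also in none of the 9. Of whole peaks, it was in 11.1% of the day 5 and 2.19% of the day 10 5hmC list. For 5mC it was in 12.7% of the day 10 and 18.4% of the day 0 list. In 200 bp around the midpoint, the 5hmC shares were 3.26% at day 5 and 2.57% at day 10. The NF1 string TTGGCA was in both day 5 5hmC peaks and in the Tead2 5mC peak, but outside the central 200 bp of each, and was in 48.1% of day 5 5hmC and 41.3% of day 10 5mC peaks. The RUNX string TGTGGTT was in the intronic day 10 peak of Vgll4, at base 12, and in the day 5 peak downstream of it, against 7.56% and 25.6% of these lists. In 200 bp around the midpoint, 8.69% and 8.26% of the same lists held the RUNX string. A match of letters is a description and not a bound site.

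The rest of the Hippo pathway was read from a list of 55 other genes, of which 54 were in the annotation. Of these, 39 had a peak of some list by the same rule and 15 had none, where 62.9% of protein-coding genes had none. A day 10 5hmC peak was found at 22 of 54 (40.7%, against 20.6% of protein-coding genes), a day 5 5hmC peak at 19 (35.2%, against 14%), a day 10 5mC peak at 22 (40.7%, against 15.9%) and a day 0 5mC peak at none. The densities were 3.81, 2.44 and 3.61 peaks per Mb for day 10 5hmC, day 5 5hmC and day 10 5mC. In the same order the 10 genes had 2.78, 1.11 and 0.556, and protein-coding genes 1.99, 1.02 and 1.23. The median length of these pathway genes was 52.7 kb, against 17.4 kb for protein-coding genes. No difference between the groups was tested, and the counts and shares of genes above and below do not allow for length. Of their 25 day 5 5hmC peaks, 4 overlapped a day 10 peak (16%, against 29.6% of that list), and of their 39 day 10 5hmC peaks, 5 overlapped a day 5 peak (12.8%, against 17.1%).

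Among upstream kinases and scaffolds, 6 of 21 had no peak of any list, beside the 62.9% of protein-coding genes. The other 15 were Stk4, Mob1b, Nf2, Wwc1, Wwc2, Taok1, Taok2, Taok3, Map4k4, Map4k3, Map4k2, Mink1, Tnik, Stk38l and Rassf1. Stk4, the MST1 kinase that activates LATS, had 3 day 10 5hmC peaks and 1 day 10 5mC peak inside the gene. Nf2, the scaffold Merlin, had a day 10 5hmC peak within the gene from 4809420 to 4809556 on chromosome 11. No peak was assigned to Stk3, which encodes the related kinase MST2, or to the adaptor Sav1.

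Of 16 genes for junction and polarity inputs, 4 had no peak, beside the same 62.9%. The 12 with a peak included Dchs1, Fat1, Amot, Amotl1, Amotl2, Ptpn14, Crb2, Pard3, Scrib, Dlg5 and Limd1. Fat1, an atypical cadherin, had 6 day 10 5mC peaks inside the gene and no 5hmC peak. Amotl1, an angiomotin that binds YAP, had 3 day 10 5hmC peaks and 1 day 5 5hmC peak inside the gene.

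Of 18 genes known as targets of YAP and TEAD, which share Amotl2, Ptpn14 and Ajuba with the former group, 4 had no peak, again beside 62.9%. The 14 with a peak were Ccn1, Ccn2, Ankrd1, Crim1, Amotl2, Tgfb2, Birc5, Nt5e, Ptpn14, Dlc1, Fjx1, F3, Gadd45b and Lhfp. Ccn1 (CYR61), a secreted matrix protein, had a day 5 5hmC peak 6.8 kb from the gene, a day 10 5mC peak at 14 kb and a day 10 5hmC peak at 41 kb. Ankrd1 had day 5 5hmC and day 10 5mC peaks at 7.42 and 5.63 kb and a pair of day 10 5hmC peaks at 45.5 and 47.3 kb, and Ccn2 (CTGF) a day 10 5mC peak alone, at 19 kb. The TEAD cofactors Vgll1 and Vgll2 had no peak.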

How the data were processed

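The authors enriched ATDC5 DNA for 5hmC (tagged by a glucosyltransferase and pulled down) or 5mC (bound by a methyl-CpG complex), sequenced it with single-end reads, aligned these with BWA to GRCm38 and called peaks with MACS 1.4.2 (submitters' processing notes). The deposited lists hold positions and, for part of the peaks, a symbol. Per the file headers they are peaks with a 3-fold (5mC) or 10-fold (5hmC) enrichment. The control behind each list is not given in the sources used here, and the study describes the calls as gains or losses between stages, so the lists may not hold all sites. The day 0 input was not analysed here.

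Empty rows were dropped (27818 and 25449 in the 5hmC files). Positions were read as 1-based and inclusive, which may be off by 1 bp. Between 98.23% and 99.61% of peaks with a symbol in GENCODE mouse release 21 lay within 10 kb of that gene. Sequence came from the RefSeq copy of GRCm38, in which lower case marks repeats, through pysam 0.24.0 (Python 3.11.15). Flanks for CpG content had the width of the peak and began 2000 bp from its edges. Density intervals are exact binomial (Clopper-Pearson, SciPy 1.17.1) for the peaks at the 10 genes among those at protein-coding genes. Percentiles are among the peaks of the list or among protein-coding genes, ties counted at their middle. The assignment rule was tested on simulated data. No test between days or marks could be made with 1 list for each. All 10 genes were named, with or without a peak, and of the other Hippo pathway genes those with a peak, except for an item that is not reported here. The genes, strings and lists were chosen with earlier results of these data known.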

Additional observations from a re-analysis of the deposited data

How the results depend on the processing

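No paired analysis was possible because the numbered 5hmC samples were merged into 1 list for each day, and for the same reason leaving out a sample was not run. With gene bodies only, the genes with a peak and their peaks fell to 0 for both 5mC lists, with density ratios of 0. For day 5 5hmC there was then 1 gene with 1 peak, and for day 10 5hmC 2 peaks. The other Hippo pathway genes with a gene body peak were 10 for day 10 5mC, 7 for day 5 5hmC and 13 for day 10 5hmC. By the authors' symbol only, 5mC again had 0 genes and 0 peaks, day 5 5hmC 1 gene and 1 peak, and day 10 5hmC 2 peaks. With 100 kb on each side there were 5 genes and 8 peaks for day 10 5hmC and 2 peaks for day 10 5mC, and 1 other pathway gene gained a day 0 5mC peak. No share of protein-coding genes is given for that wider window. With only peaks of at least the median width, both 5mC lists had 0 genes and 0 peaks, with density ratios of 0, and day 10 5hmC had 1 gene with 2 peaks. In 200 bp around the midpoint, 0 peaks held the NF1 string and 1 the RUNX string. In all, 33 of 89 alternative values moved, meaning a count by over 1.5 times or a density ratio beyond its 95% interval. These intervals are wide, so a day 5 5hmC ratio of 2.1 (median width) against 1.09 and a day 0 5mC ratio of 3.03 (100 kb) against 4.93 lay within them. Merging peaks within 1000 bp left the peak counts at the 10 genes as they were and gave a day 10 5hmC ratio of 1.47 against 1.4. Leaving out wholly repeat peaks, chosen after seeing the data, took the day 10 5hmC peaks from 5 to 4 and their ratio to 1.14. The 5hmC density ratios lay between 1.08 and 2.1 under every alternative run. These alternatives draw on largely the same few peaks, and the intervals of the main ratios hold 1. By the authors' symbol only, no density ratio was computed.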
